A study of Homo sapiens with 8 samples.

Results

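The 10 imprinted genes PEG3, MEST, PEG10, SGCE, SNRPN, PLAGL1, GNAS, KCNQ1, GRB10 and L3MBTL1 were followed in peak lists of 2 histone marks, because at such genes the repressive and the active mark can lie on the 2 parental copies of one control region. The genes were chosen by name, with earlier results of these data known. All 10 were found among the 19970 protein-coding genes of GENCODE release 44 on chromosomes 1 to 22 and X, the set used for comparison. The cells were SUM159, an established line from a triple-negative, mesenchymal breast cancer. All cells carried pLV dCas9-KRAB, a lentiviral vector for catalytically inactive Cas9 joined to the KRAB repressor domain. All gRNA cells also received the pool of 4 guides against the ZEB1 promoter, and No gRNA cells received the empty vector without a targeting guide. Native ChIP-seq (immunoprecipitation of chromatin that was not cross-linked) was carried out for trimethylated lysine 9 of histone H3 (H3K9me3) and trimethylated lysine 4 (H3K4me3), with 2 libraries labelled as biological replicates per group and mark, 8 libraries in all. Whether these libraries came from clones or from mixed transduced cells is not given in the sources used here.

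Imprinted genes are expressed mainly from the copy inherited from one parent. Each such cluster is governed by a control region whose DNA is methylated on one parental copy only, and H3K9me3 is known to lie on the methylated copy while H3K4me3 lies on the unmethylated copy, often at a promoter. The KRAB zinc finger proteins ZFP57 and ZNF445 hold the methylated state by recruiting TRIM28 and the H3K9 methyltransferase SETDB1. ZFP57 binds the hexamer TGCCGC when its CpG is methylated. The KRAB domain of dCas9-KRAB acts through the same corepressor. The peak lists carry no allele information, so overlap of both marks in a window can come from 2 alleles, from 2 groups of cells or from one nucleosome array, and these cannot be told apart here.

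The sequences below are the RefSeq promoters (GRCh38.p14, 300 bases each, written 5′ to 3′ along the gene) of 5 starts on which the results turn. They are shown because the ± 2 kb around 4 of them held peaks of both marks in most libraries. The GNAS sequence is the contrast with almost only H3K4me3. It lies within 2 kb of position 58888413, in the exon A/B region described below as imprinted, and not at the start of the main transcript. TGCCGC and its reverse complement GCGGCA are in capitals. Of all 34943 RefSeq promoter sequences 16.7% held the hexamer on either strand and 2.75% held it at least 2 times.
SNRPN and SNURF, chr15:24954737-24955036, plus strand: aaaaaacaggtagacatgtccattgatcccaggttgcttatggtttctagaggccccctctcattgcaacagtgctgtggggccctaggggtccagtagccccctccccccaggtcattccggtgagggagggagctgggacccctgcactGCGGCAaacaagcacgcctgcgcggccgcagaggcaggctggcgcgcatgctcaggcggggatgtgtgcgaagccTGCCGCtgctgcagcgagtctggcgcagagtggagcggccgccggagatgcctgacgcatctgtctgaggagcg
PLAGL1 and HYMAI, chr6:144008210-144008509, minus strand: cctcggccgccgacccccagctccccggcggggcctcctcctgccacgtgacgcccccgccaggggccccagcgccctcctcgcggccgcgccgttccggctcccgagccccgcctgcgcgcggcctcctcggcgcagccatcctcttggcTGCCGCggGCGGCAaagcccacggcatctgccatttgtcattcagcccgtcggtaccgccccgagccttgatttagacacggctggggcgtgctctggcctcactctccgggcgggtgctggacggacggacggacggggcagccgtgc
MEST, chr7:130491835-130492134, plus strand: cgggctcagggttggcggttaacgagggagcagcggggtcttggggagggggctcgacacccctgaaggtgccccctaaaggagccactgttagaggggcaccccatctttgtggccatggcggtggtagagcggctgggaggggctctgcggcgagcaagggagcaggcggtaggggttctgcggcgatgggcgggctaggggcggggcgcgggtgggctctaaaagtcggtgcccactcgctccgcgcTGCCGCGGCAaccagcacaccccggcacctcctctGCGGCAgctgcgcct
GRB10, chr7:50782847-50783146, minus strand: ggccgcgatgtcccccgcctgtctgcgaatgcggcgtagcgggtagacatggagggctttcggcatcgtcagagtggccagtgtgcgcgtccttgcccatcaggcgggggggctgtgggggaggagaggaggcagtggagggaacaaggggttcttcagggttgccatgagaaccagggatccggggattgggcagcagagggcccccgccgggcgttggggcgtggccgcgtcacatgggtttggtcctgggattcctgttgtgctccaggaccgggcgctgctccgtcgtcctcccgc
GNAS, chr20:58888930-58889229, plus strand: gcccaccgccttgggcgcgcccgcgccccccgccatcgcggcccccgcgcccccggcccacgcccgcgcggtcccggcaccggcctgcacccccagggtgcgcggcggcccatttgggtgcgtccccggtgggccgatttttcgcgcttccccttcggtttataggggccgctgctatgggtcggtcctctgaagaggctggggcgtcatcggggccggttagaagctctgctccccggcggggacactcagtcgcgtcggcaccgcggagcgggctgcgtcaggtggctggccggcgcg
The SNRPN and PLAGL1 sequences hold the hexamer 2 times each and the MEST sequence 3 times, the first pair of which overlap on opposite strands, whereas the GRB10 and GNAS sequences hold none. An H3K9me3 peak touched these 300 bases in all 4 libraries at SNRPN, in 3 at PLAGL1, MEST and GRB10 and in 0 at GNAS. An H3K4me3 peak did so in 3 of 4 libraries at SNRPN, in 2 at MEST and in 4 at PLAGL1, GRB10 and GNAS. Among the RefSeq entries 6 of the 10 genes and 4 of the 8 named partner genes had a promoter. PEG3, PEG10, SGCE and KCNQ1 had no entry.

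The lists held between 321975 and 506683 peaks per library and covered between 20.6% and 30.8% of chromosomes 1 to 22 and X. Depth is unknown, since read counts are not part of the lists. Weak regions were kept in every list, and between 3067 and 36131 peaks per library passed q ≤ 0.05 on these chromosomes. At the ZEB1 start ± 2 kb, the target of the guides, H3K9me3 peaks covered 54.8% and 49.5% of the bases in the 2 All gRNA libraries and 0% in both No gRNA libraries. H3K4me3 peaks there covered 23.1% and 81.0% in the libraries labelled All gRNA replicates 1 and 2, and 0% and 85.5% in the libraries labelled No gRNA replicates 1 and 2. The deposited names give the other condition for the H3K4me3 libraries labelled All gRNA replicate 2 and No gRNA replicate 1. Read by those names, the ZEB1 shares of H3K4me3 are 23.1% and 0% for the guide libraries and 81.0% and 85.5% for the empty vector libraries, which do not overlap, whereas the groups overlap by the labels. The study reports that H3K4me3 was almost wholly lost from the ZEB1 promoter in All gRNA cells. Only the reading by the names gives lower values in both guide libraries there. The groups used below nevertheless follow the labels, each H3K4me3 value is given by library, and calls in H3K4me3 are also read by the names. Calls that arise only by the names are given for 5′ ends and were not counted at other starts. Of the 4 mesenchymal markers VIM, FN1 and CD44 had H3K4me3 over at least 69.2% of the window in all 4 libraries, and ZEB1 did not. All 3 epithelial markers, CDH1, EPCAM and KRT8, also carried it in every library, as did the receptor gene ERBB2. Of the other 2 receptor genes ESR1 carried none, and PGR had 19.5%, 19.4%, 0% and 63.7% in the order of the labels. Of 3 markers of other tissues none had H3K4me3 in every library, with means of 0% for PTPRC, 9.29% for ALB and 37.3% for MYOD1.

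The first question was how the marks were distributed at the annotated 5′ end of each gene ± 2 kb, a window of 4001 bases, as the share of bases under any deposited peak. The 10 genes fell into 3 kinds. PEG3 and SNRPN were covered almost wholly by H3K9me3, PEG10, SGCE, PLAGL1 and GRB10 almost wholly by H3K4me3, and MEST, L3MBTL1, GNAS and KCNQ1 carried part of each. Over the members the median of the mean shares was 18.2% for H3K9me3 and 63.8% for H3K4me3, beside 3.24% and 76.6% over all promoters. H3K9me3 was found in every library at 5 of the 10 genes, against 3595 of all 19970 promoters. No H3K9me3 peak in any library lay at 2 of them, PEG10 and SGCE, while 36.8% of all promoters had none.

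Both marks were counted as present when at least 200 bases of the window lay under peaks of both marks in each of the 16 combinations of 1 H3K9me3 and 1 H3K4me3 library. By this rule 2 of the 10 genes, MEST and L3MBTL1, carried both marks at the 5′ end, and 4.53% of all promoters did. Neither 5′ end is the start described below as holding the control region or as imprinted. Those starts of the 2 genes did not pass in all 16 combinations. With the window moved to the start of the canonical transcript the count was again 2 of 10, but the genes were SNRPN and GRB10, beside 4.5% of all promoters. When any annotated start of a gene could hold the overlap, 4 of the 10 genes passed (MEST, SNRPN, GRB10 and L3MBTL1), beside 6.91% of all genes. Starts within 500 bases of each other were joined for this count. Both marks were present at 3 of 13 GRB10 starts, 2 of 7 MEST starts, 1 of 3 SNRPN starts and 1 of 9 L3MBTL1 starts, and at 0 of 44 starts of the other 6 genes. This makes 7 of 76 starts of the 10 genes, beside 2.82% of all 69402 start positions of protein-coding genes. The 10 genes had 7.6 start positions per gene, beside 3.48 over all genes, so they had more chances to hold the overlap at any start, and neighbouring windows overlap. These counts are small, and with peaks of q ≤ 0.05 none of the 10 genes passed at any start, and 0.01% of all genes did.

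SNRPN encodes a spliceosomal protein and its promoter, shared with SNURF, lies in the control region of the Prader-Willi and Angelman cluster. The window around the shared canonical start (chr15, position 24954987) was covered by H3K9me3 over 100% and 100% of its bases in the All gRNA libraries and over 79.0% and 100% in the No gRNA libraries. H3K4me3 covered 58.8% and 58.2% under the All gRNA label against 41.8% and 55.9% under the No gRNA label. Every library of both marks thus had a peak there. The overlap was at least 1018 bases in all 16 combinations, with a median of 2236 and a maximum of 2351. SNRPN was the only one of the 10 genes that also passed with at least 1000 shared bases at some start, as 1.9% of all genes did.

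Where at least 3 of 4 libraries of each mark had a peak, the shared region ran over chr15:24954752-24957003, 2252 bases that include the start, with 114 CpGs and 3 copies of the ZFP57 hexamer. It was the largest of 7 shared regions in the gene ± 5 kb. H3K9me3 extended far beyond it and covered 97.6% of this 165087-base locus, whereas H3K4me3 in at least 3 libraries covered 2.49% of it and lay wholly inside the H3K9me3 part. Over the genome 18.8% of bases had H3K9me3 in at least 3 libraries, 14.7% had H3K4me3 and 1.75% had both. The strongest H3K9me3 peaks in the window had q of 0.0205 and 0.0195 in the All gRNA libraries and 0.146 and 0.0574 in the No gRNA libraries. Those of H3K4me3 had q of 0.118 and 0.286 under the All gRNA label against 0.676 and 0.0151 under the No gRNA label. With gaps of up to 1 kb joined, the H3K9me3 domain over the start was 48993, 48950 and 48968 bases long in 3 libraries and 3611 bases in No gRNA replicate 1.

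The upstream SNRPN starts looked different. At the annotated 5′ end (position 24823637) H3K9me3 covered 100% and 100% with guides (All gRNA) against 77.9% and 85.7% without (No gRNA), and H3K4me3 covered 0%, 0% and 0% in the first 3 libraries and 6.45% in the fourth, labelled No gRNA replicate 2. The next start (position 24856551) had at least 97.0% H3K9me3 and at most 8.62% H3K4me3. Of these 3 annotated starts the control region start had the most H3K4me3. H3K4me3 was not confined to it, since an upstream RefSeq promoter of SNRPN (chr15:24862722-24863021) was touched by H3K4me3 peaks in 3 libraries and by H3K9me3 peaks in 4, within a region of 610 bases under both marks. SNHG14, the long transcript that hosts the snoRNAs of the cluster, had H3K9me3 over 100% of the window at its first start (position 24978583) in all 4 libraries, and H3K4me3 over 13.0%, 57.6%, 33.8% and 60.1%.

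PEG3, a zinc finger gene expressed from the paternal copy, shares its first exon region with ZIM2. H3K9me3 covered 100% of the window at its 5′ end (chr19, position 56840728) in all 4 libraries, a mean that 1.69% of promoters reached. H3K4me3 covered 8.10% and 34.0% under the All gRNA label against 0% and 32.8% under the No gRNA label. The H3K9me3 domain was 33740, 33643, 31834 and 33550 bases long, with peak q of 0.00645, 0.00353, 0.0355 and 0.0031, and among the strongest 1.98% of each list. The H3K4me3 peaks were weak, with q of 0.76, 0.987 and 0.925 in the 3 libraries that had one. The overlap reached 200 bases in 12 of 16 combinations, with a median of 819, and all 4 failing combinations held the library labelled No gRNA replicate 1. No region of the PEG3 locus had both marks in at least 3 libraries of each. PEG3 lies among zinc finger genes, 13 of which start within 500 kb of it, against 0 or 1 for each of the other 9 genes. H3K9me3 is known over such clusters, and the part of this neighbourhood in the PEG3 value was not tested.

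GRB10 encodes an adaptor that dampens insulin and growth factor receptor signalling, and its internal CpG-rich promoter is the one known to carry the methylated control region. At the canonical start (chr7, position 50782896) H3K4me3 covered 100% of the window in all 4 libraries. H3K9me3 covered 9.22% and 43.1% with guides (All gRNA) against 28.1% and 45.7% without (No gRNA). The overlap ranged from 369 to 1830 bases with a median of 1426. The 2 neighbouring starts (positions 50781500 and 50779570) also passed in all 16 combinations, with medians of 976.5 and 1592.5 bases, and their windows overlap that of the canonical start. At the upstream 5′ end (position 50793462) H3K9me3 was 8.57% and 6.12% with guides (All gRNA) against 22.7% and 0% without (No gRNA) beside 100% H3K4me3 in all 4 libraries. The H3K9me3 peaks at the canonical start were weak, with q between 0.336 and 0.71, and those of H3K4me3 had q between 0.00975 and 0.198. Where H3K4me3 covers the whole window, as here, the overlap equals the H3K9me3 coverage. With gaps of up to 1 kb joined, the H3K4me3 domain over the canonical start was between 17872 and 37385 bases long. Over the whole locus 4.05% of bases had both marks in at least 3 libraries of each, the highest share among the 10 genes. Taken singly by this count, H3K4me3 covered 67.9% of the locus and H3K9me3 5.91%. Whether the overlap exceeds what such wide H3K4me3 coverage would give was not tested.

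MEST, which encodes a protein with an alpha/beta hydrolase fold, has an upstream promoter and a downstream promoter at which the methylated control region lies. At the upstream 5′ end (chr7, position 130486171) H3K9me3 covered 36.7% and 31.9% with guides (All gRNA) against 19.6% and 25.7% without (No gRNA). H3K4me3 covered 73.9% and 87.1% under the All gRNA label against 59.1% and 84.9% under the No gRNA label. The overlap was between 420 and 1467 bases, with a median of 785. At the downstream canonical start (position 130492085) the balance was the other way. H3K9me3 covered 77.5%, 59.1%, 47.3% and 83.2%, and H3K4me3 covered 0%, 57.4%, 35.8% and 70.1%, in the order of the labels All gRNA 1 and 2 and No gRNA 1 and 2. All 4 combinations without overlap at this start held the library labelled H3K4me3 All gRNA replicate 1, and the median over all 16 was 1051.5 bases. MESTIT1, the antisense RNA that starts between the promoters, also had both marks in 12 of 16 combinations.

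PLAGL1 encodes a zinc finger growth regulator, and its control region promoter is shared with the noncoding RNA HYMAI. At this start (chr6, position 144008259) H3K9me3 covered 25.4% and 39.3% with guides (All gRNA) against 16.8% and 27.0% without (No gRNA). H3K4me3 covered 54.5% and 75.3% under the All gRNA label against 54.0% and 66.4% under the No gRNA label. Every library of either mark thus had a peak in the window. At least 200 bases were shared in 12 of 16 combinations, with a median of 624 and a minimum of 0. The rule for both marks was therefore not met. The region at this start under both marks in at least 3 libraries of each was short, chr6:144007917-144008282, 366 bases of 77.6% GC with 55 CpGs and 2 copies of the hexamer. It was not the largest such region of the locus. That one, chr6:144044403-144046939, had 2537 bases, 15 CpGs and 0 copies of the hexamer and lay 17660 bases from the nearest start. At the distant 5′ end of PLAGL1 (position 144064599) H3K4me3 covered between 75.2% and 100%, and H3K9me3 was present in 1 library only, over 29.5% of the window in No gRNA replicate 1.

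KCNQ1 encodes a voltage-gated potassium channel, and KCNQ1OT1, the antisense RNA that silences neighbouring genes in cis, starts from the control region inside it. At the KCNQ1OT1 start (chr11, position 2700003) H3K4me3 covered 93.3%, 100%, 100% and 100%. H3K9me3 covered 28.2% and 0% with guides (All gRNA) against 20.2% and 21.5% without (No gRNA), so that 12 of 16 combinations overlapped by at least 200 bases and the All gRNA replicate 2 library accounted for the rest. At the start of KCNQ1 itself (5′ end at position 2444654) H3K9me3 was 0%, 18.1%, 0% and 7.42%. H3K4me3 there was 6.85% and 31.5% under the All gRNA label against 5.60% and 60.5% under the No gRNA label. The promoter of the antisense RNA thus carried more H3K4me3 in every library than the promoter of the channel gene did.

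L3MBTL1 encodes a reader of methylated histone lysines related to Polycomb proteins. Its 5′ end (chr20, position 43489442) had H3K9me3 over 21.1% and 48.0% with guides (All gRNA) against 44.9% and 69.7% without (No gRNA). H3K4me3 covered 57.2% and 59.2% under the All gRNA label against 37.8% and 51.1% under the No gRNA label. The overlap ranged from 302 to 1753 bases with a median of 900.5, which 6.38% of promoters reached and no other gene of the 10 reached at its 5′ end. These were weak peaks, with q between 0.123 and 0.682 for H3K9me3 and between 0.34 and 0.998 for H3K4me3. At the CpG-rich start known to be imprinted (position 43513955) the marks overlapped in 10 of 16 combinations. H3K9me3 there covered 39.5% and 43.5% with guides (All gRNA) against 0% and 23.0% without (No gRNA). The 3 protein-coding genes closest to L3MBTL1 in Euclidean distance over the 8 library shares were GASK1A, at a distance of 24.6 percentage points, IRAK3 at 30.7 and SLITRK5 at 32.9. Their overlaps had medians of 969, 675 and 957 bases.

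PEG10, a gene derived from a retrotransposon, and SGCE, which encodes epsilon-sarcoglycan, start 247 bases apart in opposite directions, so their windows share most of their bases and count as 1 region. Neither had an H3K9me3 peak in any of the 4 libraries. At PEG10 (chr7, position 94656325) H3K4me3 covered 88.0% and 83.4% under the All gRNA label against 76.0% and 98.6% under the No gRNA label. The SGCE shares were 94.2%, 77.2%, 76.0% and 100%. The shared promoter is CpG-rich, with 188 CpGs in the PEG10 window, and it held 0 copies of the hexamer. H3K9me3 appeared downstream, at a PEG10 transcript start at position 94664735, over 60.1%, 47.6%, 7.00% and 73.8% of the window, with both marks in 14 of 16 combinations. No H3K9me3 peak was thus listed at this promoter pair, a known imprinted promoter, and a missed peak cannot be told from an absent one at unknown depth.

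GNAS encodes the stimulatory G protein alpha subunit and uses several promoters, of which those of the NESP55, XL alpha s and exon A/B transcripts are imprinted while the promoter of the main transcript is not methylated. The start of the main transcript (chr20, position 58891421) had H3K4me3 over 100% of the window in all 4 libraries and H3K9me3 over 2.95% in All gRNA replicate 2 and 0% in the other 3. The window at the start position 58888413, in the exon A/B region, had H3K4me3 over 100%, 95.6%, 67.7% and 92.4%, and H3K9me3 over at most 6.37%. Further upstream both marks were patchy. At position 58852714 H3K9me3 covered 71.6% and 100% with guides (All gRNA) against 10.9% and 28.3% without (No gRNA), and H3K4me3 covered 6.32%, 74.1%, 8.02% and 13.3%. GNAS-AS1, the antisense RNA that starts nearby, had H3K9me3 over 63.2%, 100%, 56.2% and 36.5% and overlap in 14 of 16 combinations.

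The shares of the marks were then compared with each other over all 8 libraries by the exact permutation test, two-sided, with Benjamini-Hochberg adjustment over the 19745 promoters that had a peak in any library. The smallest p that 4 against 4 libraries allow is 0.0286. At the 5′ end H3K9me3 was above H3K4me3 at PEG3 (100% ± 0 against 18.7% ± 17.3, SD, n = 4 each) and at SNRPN (90.9% ± 11.0 against 1.61% ± 3.22, SD, n = 4 each), both with adjusted p = 0.0397 by the exact permutation test. Of all these promoters 5.32% passed in this direction. H3K4me3 was above H3K9me3 at MEST, PEG10, SGCE, PLAGL1 and GRB10, 5 of 10 genes, also with adjusted p = 0.0397 by the exact permutation test. PEG10 and SGCE count as 1 region, so these 5 genes are not 5 separate results. Of the tested promoters 66.7% passed in this direction. L3MBTL1, GNAS and KCNQ1 did not pass, with differences of H3K9me3 minus H3K4me3 of -5.39, -3.58 and -19.7 percentage points and adjusted p of 0.697, 0.886 and 0.268 by the same exact test. Covered share is not a scale shared by 2 antibodies, so this test says which lists covered more of the window, not which mark was more abundant.

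At the canonical starts the SNRPN difference stood at 41.1 points, PLAGL1 at -35.4 and GRB10 at -68.4, each with adjusted p = 0.0391 by the exact permutation test over canonical starts. GNAS passed there with -99.3 points, also with p = 0.0391 by that exact test. MEST changed direction between its promoters, from -47.8 points at the 5′ end to 25.9 points at the canonical start, where adjusted p was 0.202 by the exact permutation test.

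The second question was whether the share of either mark at these genes differed between All gRNA and No gRNA cells. A call required a gap of at least 25 percentage points between the nearest libraries of the groups, with no overlap. For H3K9me3 0 of the 10 genes were called higher and 0 lower in All gRNA, beside 0.851% and 0.641% of all promoters. For H3K4me3 1 gene, GNAS, was called higher in the libraries labelled All gRNA, beside 1.13% of promoters, and 0 were called lower, beside 1.89%. Read by the deposited names, none of the 10 genes meets the rule for H3K4me3 at its 5′ end. H3K4me3 is then lower in both guide libraries at PEG3, KCNQ1, PLAGL1 and MEST, with gaps of less than 25 points. PEG3, with 8.10% and 0% against 34.0% and 32.8%, falls only just short of the rule. So does KCNQ1, with 6.85% and 5.60% against 31.5% and 60.5%. The share of all promoters separated in this way by the names was not counted, so these genes cannot be set against it. The exact permutation test over the 6 labellings of 2 against 2 libraries cannot give a p below 0.333, and 0 genes reached an unadjusted p under 0.05 for this reason.

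The GNAS call was at the 5′ end (chr20, position 58839718), the start of the NESP55 transcripts. H3K4me3 covered 46.6% and 61.7% of the window under the All gRNA label against 0% and 14.2% under the No gRNA label. The groups did not overlap, and the difference of means was 47.0 points (pooled SD 10.4, exact permutation p = 0.333, two-sided, n = 2 per group). One library in each group is among those with conflicting names. Read by the names, the values are 46.6% and 0% for the guide libraries and 61.7% and 14.2% for the empty vector libraries, the groups overlap and the call is lost. Without both doubted libraries the values are 46.6% and 14.2%, a single pair with no replicate. H3K9me3 in the same window covered 27.2% and 52.4% with guides (All gRNA) against 7.95% and 20.6% without (No gRNA), again without overlap, with a difference of 25.5 points (pooled SD 14.1) and a gap of 6.52 points that was too small for a call. At the canonical GNAS start the H3K4me3 difference was 0.

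The same rule was applied to all 76 start positions of the 10 genes. For H3K9me3 2 starts were called higher in All gRNA and 0 lower, beside 0.602% and 0.53% of all start positions. Both were at GNAS, and their windows overlap. At position 58852714, given above, the shares were separated by a gap of 43.3 points. At position 58853261 H3K9me3 covered 62.4% and 90.3% with guides (All gRNA) against 0% and 35.1% without (No gRNA), a gap of 27.3 points. For H3K4me3 1 start, the GNAS 5′ end, was called higher and 2 were called lower, beside 1.19% and 3.45% of all start positions. An internal SGCE start (position 94603345) had 0% and 0% under the All gRNA label against 52.9% and 34.4% under the No gRNA label, and an internal KCNQ1 start (position 2461441) had 1.37% and 19.4% against 49.2% and 52.4%. Read by the deposited names, the groups overlap at both of these starts.

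H3K9me3 with all deposited peaks was also higher in both All gRNA libraries at the 5′ ends of SNRPN and MEST. The difference was 18.2 points at SNRPN (pooled SD 3.89) with a gap of 14.3 points, and 11.6 points at MEST (pooled SD 3.88) with a gap of 6.15 points, each with p = 0.333 by the exact permutation test. Within ± 1 kb the MEST shares were 52.9% and 32.7% against 0% and 1.45%, which met the rule for a call. With lists trimmed to equal covered length the MEST difference turned to -14.9 points, at the canonical start it was 3.01 points and with peaks of q ≤ 0.05 it was 0, so its direction depended on the setting. At the SNRPN canonical start the groups overlapped in H3K9me3, since 3 of 4 libraries were at 100%. For L3MBTL1 H3K4me3 was 13.8 points higher in the libraries labelled All gRNA (pooled SD 6.71) and the H3K9me3 difference was -22.8 points (pooled SD 18.3) with overlapping groups. Within ± 1 kb H3K9me3 at L3MBTL1 was 0% in both All gRNA libraries and 29.0% and 89.5% without guides, also a call. PEG3, PEG10 and SGCE had a difference of 0 in H3K9me3, with all 4 libraries at 100% or at 0%. A share of 100% cannot show a further rise, and with peaks of q ≤ 0.01 the PEG3 difference was 50 points (exact permutation p = 1, n = 2 per group). PLAGL1, KCNQ1 and GRB10 had differences of -14.8, 5.34 and -4.01 points in H3K9me3, with overlapping groups.

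Of the 8 partner genes 7 were matched in the annotation. At their 5′ ends 2 carried both marks in all 16 combinations, SNURF and SNHG14, beside 4.53% of all promoters. GNAS-AS1 did so in 14, and 4 more, ZIM2, MESTIT1, HYMAI and KCNQ1OT1, in 12, beside 11.4% of promoters with at least 12. SNURF, ZIM2 and HYMAI start at or next to the SNRPN, PEG3 and PLAGL1 starts described above, so their windows repeat those. By the labels none was called in either mark between the groups at its 5′ end. Read by the deposited names, GNAS-AS1 had H3K4me3 over 8.67% and 9.85% in guide libraries against 62.2% and 56.5% in empty vector libraries. These values meet the rule for a call. SNHG14, with 64 start positions, had 3 starts called higher in H3K9me3 with gaps of 25.9 to 38.3 points and 0 lower. Of all start positions of protein-coding genes 0.602% and 0.53% were called so. In H3K4me3 4 SNHG14 starts were called higher under the All gRNA label and 0 lower, beside 1.19% and 3.45%. Windows of neighbouring starts overlap, so these starts are not separate results. Read by the deposited names, the groups overlap at all 4 of its H3K4me3 starts. A wider list of imprinted genes was matched for 37 of 38 names. Both marks were present at the 5′ end of 4 of them, beside the 4.53% of promoters given above. At FAM50B H3K9me3 covered 45.7%, 47.2%, 37.3% and 86.4% and the overlap had a median of 1829 bases. SLC22A2 had H3K9me3 over 100%, 48.7%, 100% and 100% and a median overlap of 4001 bases, the whole window. CPA4 and ZNF597 had median overlaps of 1627 and 726 bases. In this list 1 gene was called higher and 1 lower in All gRNA for H3K9me3, beside 0.851% and 0.641% of all promoters. For H3K4me3 0 were called in either direction by the labels, beside 1.13% and 1.89%. Read by the deposited names, ZIM3, MIMT1 and TP73 meet the rule as lower in the guide libraries and TFPI2 as higher. The share of all promoters called by the names was not counted. The median over the list of the mean H3K9me3 share was 7.09%, between the 3.24% of all promoters and the 18.2% of the 10 genes.

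The genes that maintain imprints were examined at their own promoters, 11 of 11 matched. ZFP57, which protects control regions in early embryos, had 0% of either mark in all 8 libraries. ZNF445 had H3K4me3 over 64.8%, 68.1%, 60.2% and 100%, and TRIM28 over 100%, 100%, 70.9% and 100%. SETDB1 carried both marks in all 16 combinations, with H3K4me3 between 78.6% and 100% and H3K9me3 between 9.35% and 38.9%. H3K4me3 was present in every library at 9 of the 11, beside 80.9% of all promoters. One of the 11, DNMT3L, was called higher in H3K4me3, beside 1.13% of all promoters. It had 43.1% and 44.9% under the All gRNA label against 7.12% and 7.30% under the No gRNA label. Read by the deposited names these groups overlap. For H3K9me3 0 of the 11 were called.

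Sequence around the starts was compared last, as a description. In windows of ± 2 kb 65.3% of all promoters held TGCCGC on either strand and the median was 1 copy. The PEG3 window held 11 copies, and 0.0501% of promoters held as many. The canonical starts of MEST and GRB10 held 8 copies each (0.561% of promoters had as many), that of PLAGL1 and HYMAI 7 (1.19%) and that of KCNQ1OT1 6 (2.44%). SNRPN held 3 and PEG10 and SGCE held 0. Hexamer count and H3K9me3 did not go together throughout. The canonical GNAS start held 3 copies, as many as SNRPN, with H3K9me3 in 1 of 4 libraries, the canonical KCNQ1 start held 4 with H3K9me3 in 2, and the SNRPN 5′ end held 0 with a mean H3K9me3 share of 90.9%. The observed to expected CpG ratio was 0.565 in the SNRPN window, 0.563 at PEG3, 0.724 at PLAGL1, 0.647 at PEG10 and 0.905 at the canonical GNAS start, beside a median of 0.503 over all promoters. When all promoters were split into 4 equal parts by this ratio, 2.6% of the lowest part carried both marks and between 4.39% and 6.05% of the other parts did.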

How the data were processed

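Native ChIP-seq libraries of SUM159 cells were analysed from 8 peak lists, 1 per library, called by the authors without pooling of replicates. The study's methods give fastp, bowtie2 on hg38, removal of an exclusion list and duplicates, and MACS2, whose deposited lists are broad peaks; the submitters' processing notes name bcl2fastq 2.17, Trimmomatic 0.33, Bowtie 1.1.2 and MACS2 2.1.0. The sources differ, and whether the input served as control is not given in the sources used here. Each deposited peak carries a score (10 times the −log10 p-value, within 1), a fold enrichment ratio, and a p-value and a q-value written as −log10. Deposited −log10 p-values began near 1.0. Depth is unknown.

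All deposited peaks on chromosomes 1 to 22 and X were merged within a library, and covered bases were counted with Python 3.11.15 and numpy 2.4.6 in windows of start ± 2 kb, with starts from GENCODE 44 and the hg38 genome, whose chromosome lengths contained every peak. Groups followed the labels. Named genes were the 10 members with their starts, their partners at the same control regions, ZEB1 and members of a wider imprinted list with both marks. Up to 4 imprint maintenance genes in list order and the 3 genes nearest in pattern to the member with the most overlap were also named. DNMT3L, ZIM3, MIMT1, TP73 and TFPI2 were named after their values were seen. Libraries of a mark shared at most 503 identical intervals, so none was counted as a repeat. Tests were the exact permutation tests named in the text; p-values measure only the spread between these libraries. The scripts were tested on simulated data. The members and lists were chosen with earlier results of these data known. Alternatives covered peak threshold, equal covered length, window, start, overlap and call rules, omission of single libraries, and a block for replicate number.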

Additional observations from a re-analysis of the deposited data

How the results depend on the processing

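The counts of genes with both marks and of calls depend on weak peaks. At q ≤ 0.05 or q ≤ 0.01, 0 of the 10 genes carried both marks at the 5′ end or at any start, and 0 were called higher in H3K4me3. Of all genes 0.01% carried both marks at q ≤ 0.05. Between the marks 0 passed in either direction (2 and 5 with all peaks). This last 0 cannot show an absence of differences. The smallest p of the exact permutation test, 0.0286, passes the adjustment only if a large share of the tested promoters reach it. At PEG3 all 4 H3K9me3 peaks had q of at most 0.0355, and no H3K4me3 peak had q below 0.76. Both marks at the 5′ end were found at 0 genes with equal covered length (2.7% of all genes), ± 1 kb (2.59%) or at least 1000 shared bases (1.32%), at 4 with 12 of 16 combinations (11.4%), and at 2 to 3 without single libraries (4.92% to 6.3%). At any start they were found at 2 genes (SNRPN and GRB10) with equal covered length (4.1% of all genes), at 1 (SNRPN) with at least 1000 bases (1.9%), at 8 with 12 of 16 combinations (17.6%), at 6 with combinations of the same label and number (9.64%), and at 4 to 6 without single libraries (7.61% to 9.45%). The 6 arose without H3K9me3 No gRNA replicate 1, which added PEG10 and PLAGL1. Leaving out libraries, or asking for fewer combinations, can only keep or add genes under the rule for both marks. Without the 2 H3K4me3 libraries of conflicting names, an alternative chosen after seeing the data, 3 genes carried both marks at the 5′ end (7.17%) and 5 at any start (10.9%), with PEG3 added; that setting leaves 4 against 2 libraries, too few for any mark comparison to pass, so those counts are 0 by construction.

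For group differences, ± 1 kb gave 1 gene called higher and 1 lower in H3K9me3 (MEST, 42.1 points; L3MBTL1, -59.2), and a gap of 10 points gave 1 higher (SNRPN). The GNAS H3K4me3 call was lost (0 genes) at ± 5 kb, at the canonical start and with a gap of 50 points. Leaving out single libraries gave 0 to 1 gene higher and 0 to 1 lower in H3K9me3, 1 higher in H3K4me3 throughout and 0 to 1 lower, and 2 and 5 genes throughout between the marks. A call rests on the nearest libraries of the groups, so such an omission can only keep or add calls. It could not remove the GNAS call. The 1 gene higher in H3K9me3 (GNAS) came without All gRNA replicate 1, the 1 lower (PLAGL1) without No gRNA replicate 2, and the 1 lower in H3K4me3 (KCNQ1) when No gRNA replicate 1 by its label was omitted. The MEST H3K9me3 difference between groups turned to -14.9 points with equal covered length, and the PEG3 one rose from 0 to 50 points at q ≤ 0.01. The MEST mark difference reversed at the canonical start (25.9 points). Over the 20 group differences by gene and mark, 182 of the values under other settings moved by less than 1 SD and 38 by more. The 182 include the replicate block, which leaves a difference unchanged and so could not move it. With a replicate block the counts stayed at 0 and 0 for H3K9me3 and 1 and 0 for H3K4me3; the numbers appear to be only labels, since deviations of same-numbered libraries correlated at 0.0229 and 0.00700 over promoters. The causes were not tested. Depth is unknown, so an absent peak may be a missed one.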
